A study of Mus musculus with 32 samples.

Results

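Tumors that arose in WT mice after AOM/DSS were compared with the untreated colon of WT mice, gene by gene, to describe how the tumor transcriptome differed from the starting tissue. The comparison used 9 of the 32 libraries of the series, chosen by their labels: 5 tumors (mice 534, 541, 542, 579 and 555) and 4 basal colons (mice 851, 918, 920 and 927), with 1 library per mouse number. All 9 mice were Dnase1l3+/+ on the C57BL/6 background. The tumor mice received azoxymethane (AOM, a colon carcinogen) at 8 mg/kg when 3 months old and then 3 cycles of dextran sulfate sodium (DSS), which injures the colon epithelium from the drinking water. Tumor tissue alone was taken from them, whereas the basal samples were whole colon of mice that received neither agent, whose age is not given in the sources used here. Whether a tumor sample held 1 tumor or several is not given either. RNA was sequenced, and values are given as CPM (counts scaled to the size of each library, with TMM factors) in the mouse order above. Of 55291 genes in the table, 19101 had enough counts to be tested.

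The colon epithelium is renewed from crypts, where stem cells at the base are kept dividing by Wnt ligands that stabilize beta-catenin and turn on TCF/LEF target genes. Daughter cells mature on the way to the surface into absorptive colonocytes, mucus-producing goblet cells, hormone-producing enteroendocrine cells and chemosensory tuft cells. AOM/DSS is widely used as a model of colorectal cancer that develops on inflamed tissue, and whole colon also contains the smooth muscle, nerve plexus and fat of the gut wall.

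Total counts were 20326414 to 34377713 per basal library and 30501372 to 37635047 per tumor library. Mitochondrially encoded mRNAs took 7.27% to 11.7% of the counts in basal colon and 1.53% to 4.21% in tumors, and their part in the results below was not tested. The number that precedes the mouse in the sample labels was 123, 134, 134 and 135 in basal colon and 75, 76, 76, 81 and 77 in tumors, so whatever it marks cannot be told apart from the groups. Of 10 markers of colon epithelium, 4 fell and 0 rose in tumors, and their mean log2 CPM was 9.17, 9.72, 9.64 and 9.53 in basal colon and 8.44, 8.68, 8.88, 8.45 and 8.97 in tumors. Epcam, Krt8, Krt18, Krt19, Cdh1 and Vil1 were among the 6 that did not pass the test. The identifier of tumor 579 in the labels lacks the letter that marks the other 4 tumors, and its mean log2 CPM was 6.94 for Wnt targets and 3.59 for smooth muscle genes, against 2.12 to 2.21 and 7.75 to 8.66 in basal colon. In bulk tissue, fewer cells of a type and less RNA per cell cannot be told apart.

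A DEG (differentially expressed gene) had to differ more than 2 times between groups, with an adjusted p below 0.05 from the quasi-likelihood test of edgeR. By this rule 2948 genes (15.4% of those tested) rose and 3373 (17.7%) fell in tumors, and the median log2 fold change over all genes was 0.02. Each tumor lay above each basal library for 5100 genes (26.7%) and below each for 5178 (27.1%). Those shares are the background for the gene groups that follow. A gene near 0 in basal colon could be tested only where tumors held enough counts. For mast cell, neutrophil, cytokine, squamous and similar lists, the counts of rises among tested genes therefore depend on that filter.

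Among named protein-coding genes with groups that did not overlap, the greatest fitted rises included those of T, Cdkn2a, Wnt10a, Krt6a, Erp27, Ppbp, Irx5, Prss56 and Krt6b. T (brachyury, the mesoderm transcription factor; chr17:8434423-8442496, plus strand) was at 0 in all basal libraries and at 11.8, 5.54, 9.44, 14.6 and 10.9 CPM in tumors, at least 8.29 higher on the log2 scale with the basal group set to a floor of 3 counts. Cdkn2a, which encodes the cell cycle inhibitors p16 and p19 (chr4:89274471-89294653, minus strand), was likewise at 0 in basal colon and at 7.29, 14.5, 13.6, 8.57 and 6.97 CPM in tumors, at least 8.25 higher. Both genes were present in every tumor and in no basal library. Erp27, a protein of the endoplasmic reticulum, and Irx5, a homeobox gene, were also at 0 in all basal libraries, and were at least 7.47 and 7.31 higher on the log2 scale. Prss56, a serine protease, was uneven among tumors, at 0.453, 22.8, 7.64, 25.6 and 38.7 CPM against a single basal count in all (10.74 (95% exact counting interval 8.26 to 16.05) as a log2 ratio).

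The greatest falls were those of Cfd, Clvs2, Cyp2c55, Ugt2b5, Adipoq, Fabp2, Ctxn3, Six2, Nmu and Nkx3-2. Cyp2c55, a cytochrome P450 that is abundant in the colon (chr19:39007019-39042693, plus strand), was at 1977, 2645, 1701 and 1429.6 CPM in basal colon and 3.69, 1.62, 1.20, 2.34 and 7.85 CPM in tumors (log2 fold change -9.17, SE 0.60, adjusted p = 8.65e-07). Fabp2, the intestinal fatty acid binding protein, was at 1287, 1224, 1065 and 899 CPM in basal colon and 2.43, 1.03, 2.02, 2.69 and 4.72 CPM in tumors (log2 fold change -8.75, SE 0.41, adjusted p = 1.4e-07). Both are among the abundant mRNAs of basal colon and were nearly gone from all 5 tumors. Cfd (adipsin) and Adipoq (adiponectin) are products of fat cells, and Cfd was at 32.8, 10.1, 5.63 and 33.3 CPM in basal colon and at 0 in all tumors, at least 10.40 lower on the log2 scale. Six2 and Nkx3-2 are homeobox genes of mesenchyme, and they changed by -8.04 and -7.73. Nmu, a neuropeptide, changed by -7.75.

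Wnt/beta-catenin targets rose without exception. All 15 genes of the list were called higher, the groups did not overlap for 15 of them, and the median log2 fold change was 3.73. Feedback inhibitors of the pathway were prominent. Notum, a secreted enzyme that inactivates Wnt ligands, was at 0.61, 0.386, 0.437 and 0.676 CPM in basal colon and 70.2, 70.6, 106, 161 and 123 CPM in tumors (log2 fold change 7.61, SE 0.36, adjusted p = 1.56e-07). Wif1, which binds Wnt ligands, was at 1.69, 1.71, 1.36 and 1.29 CPM in basal colon and 179.8, 244, 289, 465 and 295 CPM in tumors (log2 fold change 7.62, SE 0.33, adjusted p = 1.01e-07), and tumor 579 had the highest level of both. Axin2, part of the beta-catenin destruction complex and a general reporter of the pathway, was already expressed in basal colon and was at 21.4, 27.7, 24.9 and 23.8 CPM in basal colon and 173, 138, 152, 217 and 187 CPM in tumors (log2 fold change 2.83, SE 0.15, adjusted p = 3.15e-07). Nkd1, Rnf43 and Znrf3, which also dampen the pathway, rose by 3.34, 3.08 and 2.16 on the log2 scale. Among transcription factors, Sp5 was at 0.235, 0.275, 0.437 and 0.338 CPM in basal colon and 34.7, 36.4, 48.3, 40.7 and 41.8 CPM in tumors (log2 fold change 6.95, SE 0.19, adjusted p = 1.47e-08), Lef1 rose by 5.50 and Tcf7 by 3.73. Mmp7 (matrilysin, a secreted protease) was at 1.6, 2.70, 1.36 and 0.981 CPM in basal colon and 349, 396, 336, 289 and 252 CPM in tumors (log2 fold change 7.64, SE 0.31, adjusted p = 7.45e-08). The smallest rises in the list were those of Myc (1.59) and Ccnd1 (1.57), which drive growth and entry into the cell cycle and are expressed at a moderate level in normal crypts.

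Because these genes moved together, their promoters were searched for CTTTGAT, the core to which TCF/LEF factors bind, on both strands (ATCAAAG on the other), in RefSeq windows of GRCm38.p6 from 250 bases before to 50 after a transcription start. RefSeq windows matched 10 of the 15 list genes. The letters were found in 3 of 16 windows of those genes, in 1225 of 32851 windows of all genes (3.73%), in 433 of 15795 windows of tested genes (2.74%) and in 3.8% of 2342 windows of genes that rose. The windows were those of Sp5 and 2 overlapping windows of Mmp7 that hold the same match. By gene, the letters were found in 2 of 10 list genes and in 4.29% of all genes. The share was 3.29% of tested genes and 4.59% of genes that rose. The upstream bases of Sp5 (chr2:70474673-70474922, plus strand) and a window of Mmp7 that ends 30 bases after its first start (chr9:7691840-7692119, plus strand) are shown 5′ to 3′ because they hold the match, which is in capitals. It begins at position -104 from the start of Sp5 and at position 5 after that of Mmp7.
Sp5: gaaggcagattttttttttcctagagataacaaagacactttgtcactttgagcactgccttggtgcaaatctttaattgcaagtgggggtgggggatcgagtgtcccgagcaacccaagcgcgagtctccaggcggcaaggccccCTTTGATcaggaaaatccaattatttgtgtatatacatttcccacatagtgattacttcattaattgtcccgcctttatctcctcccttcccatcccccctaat
Mmp7: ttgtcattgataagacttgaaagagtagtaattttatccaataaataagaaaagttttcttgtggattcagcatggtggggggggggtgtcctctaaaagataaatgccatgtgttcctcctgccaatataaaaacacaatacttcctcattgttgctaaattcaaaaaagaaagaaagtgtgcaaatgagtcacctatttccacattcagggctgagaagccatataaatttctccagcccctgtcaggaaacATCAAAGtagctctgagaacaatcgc
A match describes the letters only, and binding was not measured.

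Intestinal stem cell markers rose in 11 of 16 tested genes and fell in 2 (median log2 fold change 1.51). Lgr5, the R-spondin receptor that marks crypt base stem cells, was at 3.24, 4.24, 2.43 and 3.99 CPM in basal colon and 47.1, 33.1, 39.0, 51.5 and 40.5 CPM in tumors (log2 fold change 3.60, SE 0.20, adjusted p = 3.33e-07). Ascl2, the transcription factor that sets the stem cell program, was at 2.44, 2.42, 3.15 and 2.74 CPM in basal colon and 39.9, 35.7, 21.9, 35.0 and 29.3 CPM in tumors (log2 fold change 3.58, SE 0.20, adjusted p = 3.39e-07). The lowest tumor was well above the highest basal colon for both. Prox1, a homeobox gene of Wnt-driven colon tumors, was at 4.27, 4.90, 4.66 and 4.09 CPM in basal colon and 139, 122, 135, 221 and 170.3 CPM in tumors (log2 fold change 5.14, SE 0.21, adjusted p = 7.45e-08), and Tnfrsf19, a receptor of crypt base cells, rose by 3.10. Sox9, Cd44, Smoc2 and Msi1 rose by less (1.44, 1.56, 2.05 and 1.76). Lrig1, a brake on EGF receptor signaling in stem cells, and Rgmb, a BMP co-receptor, fell (-1.07 and -1.55). Olfm4, another stem cell marker, had too few counts to be tested.

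**Figure D1:**
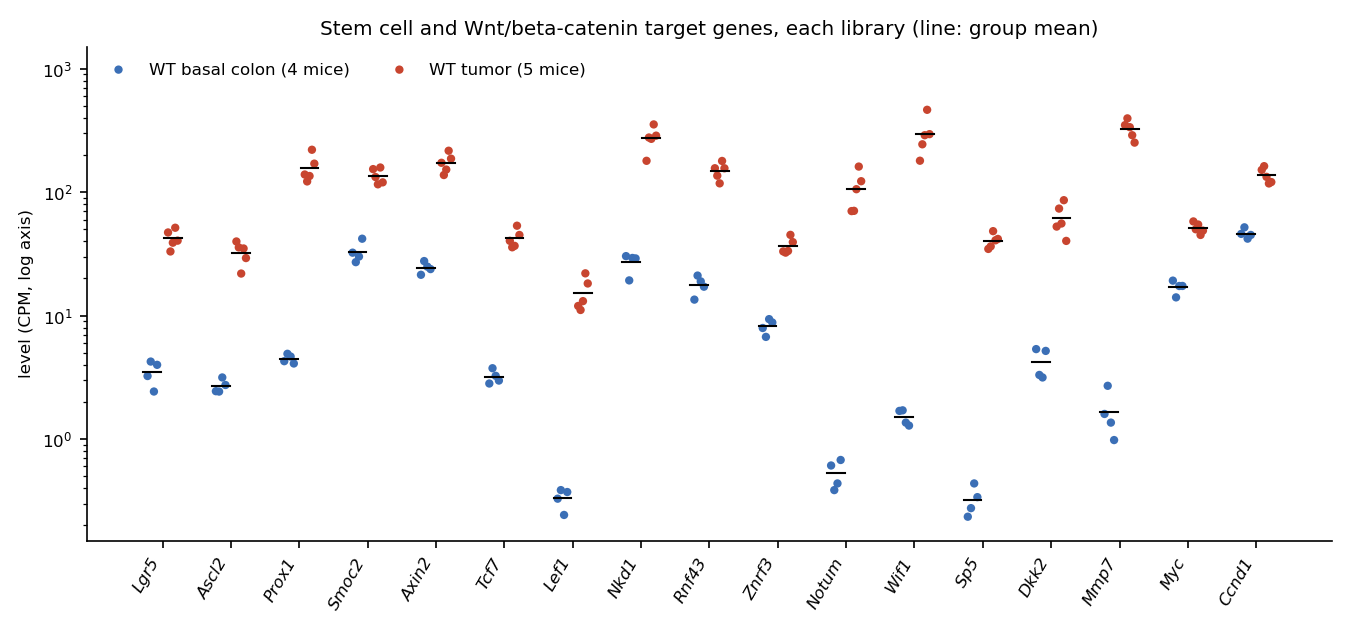
Level in CPM (log axis) of 17 stem cell and Wnt/beta-catenin target genes in each of the 4 WT basal colons (blue) and 5 WT tumors (red), with a line at each group mean. All tumors lie above all basal colons for each gene shown and the gap ranges from a log2 fold change of 1.57 for Ccnd1 to 7.64 for Mmp7.

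Wnt ligands and secreted modulators moved in both directions, with 8 of 19 tested genes higher and 6 lower (3 lower without basal 927). The rises were in ligands. Wnt10a (chr1:74791516-74804179, plus strand) was at 19.8, 38.6, 24.3, 40.5 and 28.1 CPM in tumors against 1 basal count in all, a log2 ratio of 11.39 (95% exact counting interval 8.91 to 16.69). Wnt6 was at 0.704, 0.331, 0.34 and 0.643 CPM in basal colon and 17.8, 56.0, 41.0, 54.8 and 49.8 CPM in tumors (log2 fold change 6.39, SE 0.42, adjusted p = 9.37e-07), and tumor 534 was below the others. Wnt3 was at 3.19, 2.21, 2.24, 2.04 and 2.82 CPM in tumors against 2 basal counts, a log2 ratio of 6.82 (95% exact counting interval 4.96 to 9.87). Wnt7b was at 0 in all basal libraries and at 4.10, 4.39, 4.83, 7.10 and 1.05 CPM in tumors, at least 7.0 higher on the log2 scale. Wnt5a, a ligand of mesenchymal cells, rose by 2.01. The falls were in secreted modulators, among them the Wnt inhibitors Frzb, Sfrp1 and Sfrp5 (-1.46, -1.17 and -1.39), the BMP inhibitor Grem1 (-1.11) and Rspo3 (-1.73), which amplifies Wnt signaling. Of 7 tested ligands of the EGF receptor family, Nrg1 rose (log2 fold change 1.74, SE 0.19, adjusted p = 2.21e-05) and Egf fell (log2 fold change -3.08, SE 0.49, adjusted p = 0.000277). The other 5 had log2 fold changes between 0.48 and 0.93 without reaching a fold of 2. Over all genes tested, 15.4% rose and 17.7% fell. Nrg1 (neuregulin) was at 5.12, 4.19, 3.25 and 3.62 CPM in basal colon and 14.8, 14.7, 14.9, 9.22 and 13.8 CPM in tumors, and no tumor was as low as the highest basal colon.

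Genes of the regenerative epithelium, a program that injured gut uses to repair itself, rose in 13 of 18 (median 2.36). Il33, an alarm cytokine, was at 1.6, 0.771, 0.922 and 0.913 CPM in basal colon and 38.5, 38.1, 37.4, 39.2 and 15.7 CPM in tumors (log2 fold change 5.0, SE 0.34, adjusted p = 1.15e-06). Clu (clusterin), a marker of the revival stem cell, was at 13, 11.8, 10.8 and 14.5 CPM in basal colon and 227, 180.4, 242, 703 and 690.1 CPM in tumors (log2 fold change 5.03, SE 0.50, adjusted p = 1.06e-05), with tumors 579 and 555 above the others. Ly6a (Sca-1) and Anxa1 rose by 2.92 and 2.41. Spp1 (osteopontin) and Msln (mesothelin) rose by 5.90 and 4.03. Emp1, a membrane protein of epithelial cells, was the exception and fell, at 1701, 2333, 2043 and 1752 CPM in basal colon and 224, 380.3, 395, 327 and 387 CPM in tumors (log2 fold change -2.51, SE 0.18, adjusted p = 1.58e-06). Among targets of the YAP pathway Ccn1 rose by 1.38, and Ankrd1 and Ccn2 did not pass (log2 fold change 0.18 and 0.74).

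Of 28 cell cycle genes, 13 rose and 0 fell (median 0.88). Those that rose were mostly genes of DNA replication. Mcm3, a subunit of the replicative helicase, was at 19.4, 23.3, 19.3 and 19.2 CPM in basal colon and 109.6, 116, 71.3, 74.3 and 64.9 CPM in tumors (log2 fold change 2.10, SE 0.19, adjusted p = 6.78e-06), and Mcm2, Mcm4, Mcm5, Mcm6 and Mcm7 rose by 1.79, 1.63, 1.69, 1.44 and 1.65. Cdc6 (1.68) and Ccne1 (1.47), which license and start replication, rose as well. Apart from Top2a, which rose by 1.74, mitotic genes changed by less than the threshold. Mki67 was at 114, 128, 98.7 and 112 CPM in basal colon and 201, 191, 118, 134 and 119 CPM in tumors (log2 fold change 0.43, SE 0.18, adjusted p = 0.0553). Cdk1, Plk1 and Ccnb2 had log2 fold changes of 0.39, 0.20 and 0.27, and Bub1 and Aurka of 0.89 and 0.74. Tumors 534 and 541 were the highest for Mki67 and Mcm3, and tumors 542 and 555 overlapped with basal colon for Mki67. Of 15 p53 targets and cell cycle inhibitors, Cdkn2a, Phlda3 (1.37) and Cdkn1c (1.07) rose and Cdkn1b, the inhibitor p27, fell (-1.04, which lies at the fold threshold). Over all genes tested, 15.4% rose and 17.7% fell. Cdkn1a, Mdm2 and Bax, which p53 induces, had log2 fold changes of -0.26, -0.11 and 0.94.

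Ribosome biogenesis genes rose in 13 of 18 (median 1.21). Ncl (nucleolin) rose by 1.92, and Mybbp1a, a nucleolar protein, was at 37.5, 42.1, 41.9 and 45.6 CPM in basal colon and 192, 202, 124, 111 and 111 CPM in tumors (log2 fold change 1.82, SE 0.21, adjusted p = 2.61e-05). Polr1a, the large subunit of RNA polymerase I, was at 13.8, 15.1, 12.6 and 12.2 CPM in basal colon and 46.4, 56.0, 34.8, 33.2 and 34.9 CPM in tumors (log2 fold change 1.61, SE 0.17, adjusted p = 1.7e-05). In both, tumors 534 and 541 stood above the other 3. Amino acid genes were mixed, with 5 of 14 higher and 1 lower. The serine and glycine enzymes Phgdh and Shmt2 rose (1.82 and 1.94), as did the transporters Slc7a5 and Slc7a11 (1.68 and 1.79), whereas Slc6a14, an amino acid transporter of epithelial cells, fell by 2.81 on the log2 scale. Of 21 glycolysis and hypoxia genes, 4 rose and 1 fell, against 15.4% and 17.7% of all genes tested. Slc16a3, a lactate exporter, was at 10.2, 8.37, 12.1 and 14.8 CPM in basal colon and 78.1, 135, 87.7, 146 and 84.5 CPM in tumors (log2 fold change 3.22, SE 0.25, adjusted p = 2.45e-06), and Pfkfb3, an activator of glycolysis, rose by 2.77. Slc2a1, the glucose transporter, Ldha and Vegfa had log2 fold changes of -0.12, -0.29 and -0.46 and did not pass. Car9, a carbonic anhydrase induced by hypoxia, fell (-1.09).

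Genes of the mature surface colonocyte fell in 14 of 21 and rose in 3 (median -2.04). Aqp8, a water channel, was at 1174, 1097, 1127 and 1403 CPM in basal colon and 14.9, 4.33, 4.31, 3.06 and 17.7 CPM in tumors (log2 fold change -7.08, SE 0.58, adjusted p = 3.29e-06). Guca2a, the peptide guanylin, was at 3164, 3323, 3358 and 3004 CPM in basal colon and 49.9, 40.4, 50.2, 55.7 and 88.6 CPM in tumors (log2 fold change -5.82, SE 0.24, adjusted p = 7.45e-08). Car1, a carbonic anhydrase, was at 2702, 6479, 2439 and 2044 CPM in basal colon and 88.1, 144, 137, 89.0 and 220.4 CPM in tumors (log2 fold change -4.66, SE 0.41, adjusted p = 5.45e-06). Each of the 5 tumors was below each basal colon in all of these, and tumor 555 kept the highest level. Slc26a3, the chloride and bicarbonate exchanger, fell by 5.44 on the log2 scale, Tmigd1 by 7.01 and Slc30a10, a metal transporter, by 7.11. Scnn1g (epithelial sodium channel), Atp12a (non-gastric proton pump) and Fxyd4, an ion pump regulator, rose against the rest of the list (5.71, 6.25 and 7.50).

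Ketogenesis and fatty acid oxidation genes fell in 15 of 20 and rose in 0 (median -1.30). Ppara, a transcription factor of fatty acid oxidation, fell by 3.62 on the log2 scale, and Slc5a8, which takes up short-chain fatty acids, by 3.21. Among the metabolic lists the lowest median was that of xenobiotic and steroid metabolism, where 22 of 24 tested genes fell (median -3.46). Cyp2c65 was at 177, 267, 166 and 134 CPM in basal colon and 0.453, 1.09, 0.846, 0.847 and 1.5 CPM in tumors (log2 fold change -7.61, SE 0.33, adjusted p = 1.06e-07), and Aldh1a1, which makes retinoic acid, was at 183, 379.9, 224 and 143 CPM in basal colon and 5.34, 5.33, 5.18, 3.89 and 8.40 CPM in tumors (log2 fold change -5.37, SE 0.32, adjusted p = 5.79e-07). Nearly nothing of Cyp2c65 was left in any tumor, and members of the Cyp2c and Ugt families share sequence, so reads may be split between them. The efflux pumps Abcb1a and Abcg2 fell by 3.65 and 3.38 on the log2 scale. Gsta4, a glutathione transferase, was the one gene of the list that rose (1.86).

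**Figure D2:**
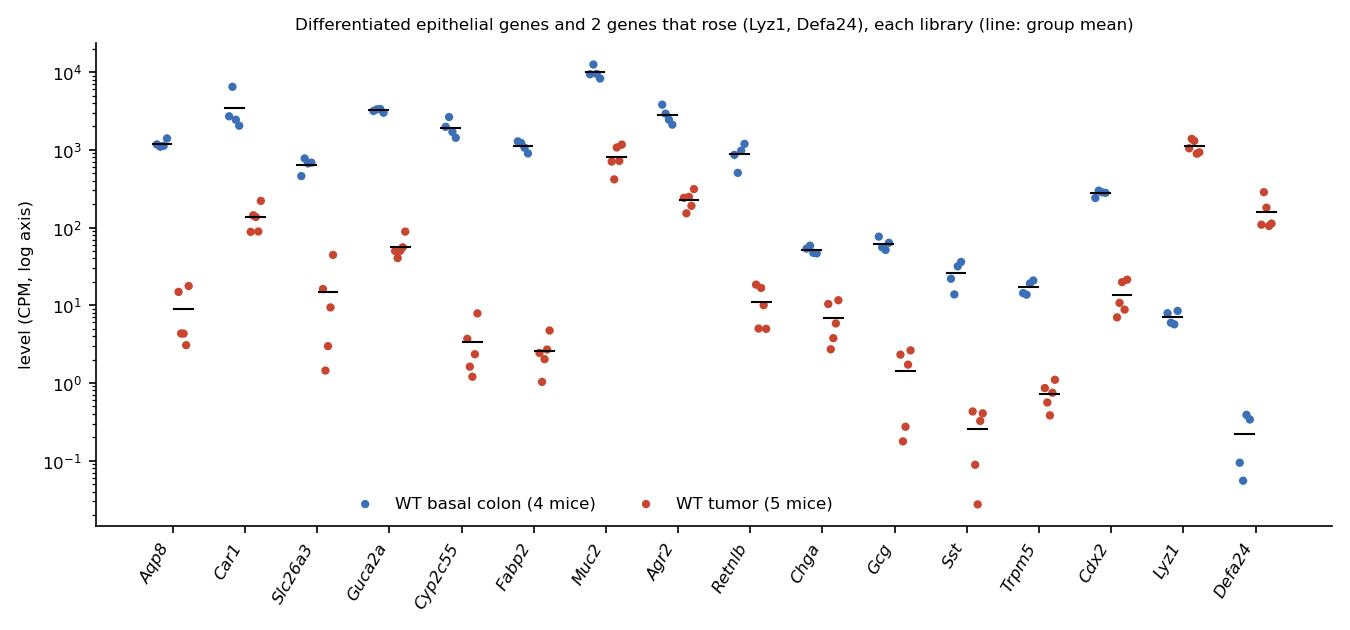
Level in CPM (log axis) of 14 genes of differentiated colon epithelium, from Aqp8 to Cdx2, and of Lyz1 and Defa24 in each of the 4 WT basal colons (blue) and 5 WT tumors (red), with a line at each group mean. The first 14 genes are lower in every tumor than in any basal colon, and Lyz1 and Defa24 are higher.

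Goblet cell genes fell in 16 of 21 and rose in 2 (median -2.02). Muc2, the gel-forming mucin of the colon, was at 9393, 12548, 9489 and 8272 CPM in basal colon and 706, 417, 1072, 719.6 and 1168 CPM in tumors (log2 fold change -3.60, SE 0.29, adjusted p = 2.83e-06). Agr2, a folding enzyme for mucins, was at 3813, 2923, 2443 and 2111 CPM in basal colon and 241, 152, 248, 190.3 and 312 CPM in tumors (log2 fold change -3.62, SE 0.24, adjusted p = 9.67e-07), and Spdef, the transcription factor of goblet maturation, fell by 2.71 on the log2 scale. Retnlb, a goblet-derived defense protein, was at 861, 505, 975 and 1194 CPM in basal colon and 18.4, 5.01, 16.7, 10.01 and 4.96 CPM in tumors (log2 fold change -6.32, SE 0.49, adjusted p = 2.17e-06). Tumor 541 had the lowest Muc2 and tumor 555 the highest, and all were far below basal colon. Tff3, the goblet trefoil peptide, had a log2 fold change of -0.73 and did not reach the fold threshold. The 2 that rose, Best2 (2.40) and Gal3st2 (1.75), encode a chloride and bicarbonate channel and a sulfotransferase. Other mucins and gastric trefoil factors rose in 7 of 11 tested genes and fell in 3. The 3 that fell were the gastric trefoil factor Tff2 (-4.03) and the mucins Muc3 (-2.025) and Muc4 (-1.14). Muc5ac and Gkn2, both of the stomach, had too few counts to be tested. Muc1, a membrane mucin, was at 3.85, 4.96, 3.98 and 3.42 CPM in basal colon and 64.8, 36.9, 79.3, 30.2 and 39.7 CPM in tumors (log2 fold change 3.64, SE 0.31, adjusted p = 4.26e-06), and Muc6, a gastric gel-forming mucin, was at 2.35, 2.42, 1.36 and 3.08 CPM in basal colon and 2.50, 15.8, 13.3, 23.1 and 16.2 CPM in tumors (log2 fold change 2.61, SE 0.53, adjusted p = 0.0013), with tumor 534 among the basal values. Gkn3, a stomach protein, was at 1.53, 0.825, 1.26, 1.40 and 1.57 CPM in tumors against 3 basal counts (log2 ratio 5.32 (95% exact counting interval 3.76 to 7.61)). Tff1 and Gkn1, also of the stomach, were at 0 in all basal libraries and were at least 3.64 and 3.78 higher on the log2 scale, at 0.429, 0.324, 0.3, 0.747 and 0.286 and 0.334, 0.324, 0.327, 1.05 and 0.262 CPM in tumors.

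Enteroendocrine genes fell in 15 of 16 tested genes (median -2.98). Sst (somatostatin, D cells) was at 21.9, 13.8, 31.7 and 36.1 CPM in basal colon and 0.429, 0.0884, 0.0273, 0.324 and 0.406 CPM in tumors (log2 fold change -6.60, SE 0.49, adjusted p = 1.85e-06). Gcg (proglucagon, L cells) was at 76.4, 55.6, 51.5 and 63.7 CPM in basal colon and 2.31, 0.177, 0.273, 1.72 and 2.62 CPM in tumors (log2 fold change -5.41, SE 0.58, adjusted p = 1.7e-05), and Chga, the granule protein shared by most endocrine cells, fell by 2.90 on the log2 scale. Hormone levels were lowest in tumors 541 and 542, and no tumor reached a basal value. Isl1, a transcription factor that other cells also express, was the one that rose, at 0.423, 0.331, 0.534 and 0.846 CPM in basal colon and 12.9, 24.6, 17.1, 15 and 4.51 CPM in tumors (log2 fold change 4.74, SE 0.51, adjusted p = 1.77e-05). Tuft cell genes fell in 11 of 14 (median -2.85). Trpm5, the taste channel, was at 14.3, 13.7, 19.1 and 20.8 CPM in basal colon and 0.858, 0.56, 0.382, 0.747 and 1.10 CPM in tumors (log2 fold change -4.52, SE 0.28, adjusted p = 6.34e-07), Pou2f3, the factor that defines tuft cells, fell by 4.24 and Dclk1 by 2.99 on the log2 scale. Avil (advillin) rose instead, at 5.35, 6.83, 8.44 and 8.76 CPM in basal colon and 54.4, 83.2, 56.6, 108 and 60.8 CPM in tumors (log2 fold change 3.30, SE 0.25, adjusted p = 2.05e-06).

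Genes of Paneth cells, a cell type of the small intestine, included some of the steepest rises, with 8 of 12 higher and 4 lower (median 6.43). Lyz1 (lysozyme) was at 7.89, 5.95, 5.68 and 8.46 CPM in basal colon and 1046, 1384, 1304, 892 and 929 CPM in tumors (log2 fold change 7.31, SE 0.24, adjusted p = 2.68e-08). Defa24, an alpha-defensin, was at 0.0939, 0.0551, 0.388 and 0.338 CPM in basal colon and 109, 285, 180.3, 105 and 112 CPM in tumors (log2 fold change 9.39, SE 0.54, adjusted p = 4.51e-07), and Defa17 was at 0.282, 0.275, 0.582 and 0.135 CPM in basal colon and 70.0, 197, 143, 64.7 and 89.2 CPM in tumors (log2 fold change 8.51, SE 0.54, adjusted p = 7.36e-07). Tumor 541 had the highest defensin level and all tumors were far above basal colon. The alpha-defensins are near-identical copies, so how reads were divided among Defa17, Defa22, Defa24 and Defa30 is uncertain. Pla2g2a, a bactericidal phospholipase, and Itln1 (intelectin) rose by 5.55 and 2.71. The 4 that fell were Mptx1 (-5.73), Mptx2 (-4.67), Ang4 (-2.34) and Nupr1 (-1.63), of which Ang4 is also made by goblet cells.

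Of 20 genes of small intestinal enterocytes, 13 could be tested, 6 fell and 2 rose (median -0.99). The median was -2.54 without basal 918 and -2.56 without basal 927, where 8 of 15 tested genes fell, and -0.56 without basal 920. Alpi, the intestinal alkaline phosphatase, was at 56.2, 99.1, 91.7 and 62.5 CPM in basal colon and 0.334, 0.353, 0.955, 0.548 and 0.859 CPM in tumors (log2 fold change -6.97, SE 0.32, adjusted p = 1.4e-07), and Gata4, the factor of proximal gut identity, fell by 4.72 on the log2 scale. Cps1 (3.68) and Anpep (1.25) rose. Antimicrobial and acute phase genes rose in 10 of 18 and fell in 1 (3 fell without tumor 555), with a median of 1.5. Lcn2 (lipocalin 2), which starves bacteria of iron, was at 0.798, 0.606, 0.631 and 1.59 CPM in basal colon and 121, 166, 175, 116 and 89.7 CPM in tumors (log2 fold change 7.14, SE 0.35, adjusted p = 1.73e-07). Nos2, the inducible nitric oxide synthase, was at 0.704, 2.92, 3.01 and 3.15 CPM in basal colon and 132, 180.2, 367, 42.2 and 95.1 CPM in tumors (log2 fold change 6.05, SE 0.70, adjusted p = 3.07e-05), and Slpi, a protease inhibitor of mucosal surfaces, rose by 5.84. Tumor 542 was the highest for Lcn2 and Nos2 and 579 or 555 the lowest. Reg3b did not pass (log2 fold change 1.20, SE 0.89, adjusted p = 0.262), and Pigr, the transporter of IgA, fell by 1.51 on the log2 scale.

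Transcription factors of intestinal identity fell in 7 of 16 and rose in 0 (median -0.96). Cdx2, the master regulator of hindgut epithelium, was at 240.2, 298, 284 and 279 CPM in basal colon and 6.98, 10.7, 19.8, 8.77 and 21.3 CPM in tumors (log2 fold change -4.35, SE 0.33, adjusted p = 2.04e-06). It was high in every basal colon and low in every tumor, with tumors 542 and 555 above the other 3. Cdx1 fell by 1.06 on the log2 scale, Isx by 2.77 and the vitamin D receptor Vdr by 2.59. Hnf4a had a log2 fold change of -0.97, short of the threshold, and Klf5, Elf3, Foxa1 and Gata6 had 0.70, 0.48, 0.61 and 0.18.

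Hox genes, which set position along the body axis, split by cluster. Of 11 posterior Hox genes tested, 6 rose and 1 fell (median 2.72). The rises were in the HoxD cluster and in Hoxb13, which is used by the hindmost gut. Hoxd13 was at 0.329, 0, 0.097 and 0.981 CPM in basal colon and 135, 92.1, 53.9, 108 and 110.3 CPM in tumors (log2 fold change 7.93, SE 0.58, adjusted p = 1.59e-06), Hoxd12 was at 0.0469, 0, 0 and 0.101 CPM in basal colon and 26.0, 16.9, 11.8, 36.8 and 33.3 CPM in tumors (log2 fold change 9.02, SE 0.61, adjusted p = 1.12e-06), and Hoxd10 and Hoxd11 rose by 6.35 and 6.04. HoxA members moved little or fell, with log2 fold changes of 0.56 for Hoxa9, -0.39 for Hoxa10, -0.58 for Hoxa13 and -1.28 for Hoxa11, the one called lower. Hoxb13 was at 14.1, 8.04, 24.8 and 59.6 CPM in basal colon and 172, 139.5, 189.5, 193 and 267 CPM in tumors (log2 fold change 2.84, SE 0.50, adjusted p = 0.000566). Of 13 anterior Hox genes tested, 8 fell and 1 rose (median -1.62), and Hoxb5 was at 7.93, 6.11, 4.17 and 5.85 CPM in basal colon and 1.10, 0.383, 0.327, 0.423 and 0.191 CPM in tumors (log2 fold change -3.62, SE 0.43, adjusted p = 3.56e-05).

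Hoxb13, Hoxd13, Atp12a, Best2 and Cps1 also differed among the untreated colons of the series. In the libraries labelled KO basal (mice 852, 853, 915 and 872), Hoxb13 was at 138, 147, 127 and 3.83 CPM and Atp12a at 107, 94.0, 86.6 and 0.531 CPM. In mice 852, 853 and 915 both were above every WT basal colon, and in mouse 872 both were below every one. Atp12a was at 1.88, 0.551, 1.5 and 6.26 CPM in basal colon and 162, 139, 322, 87.4 and 307 CPM in tumors (log2 fold change 6.25, SE 0.69, adjusted p = 2.23e-05). Hoxd13 was at 4.08, 6.82, 2.06 and 0.0838 CPM in the same KO libraries, Best2 at 15.1, 7.54, 14.1 and 1.82 CPM and Cps1 at 10.5, 0.277, 8.79 and 0.252 CPM, again lowest in mouse 872. The part that such differences among untreated colons had in the WT change of these genes was not tested.

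Squamous epithelium genes, which the colon does not normally use but the skin and the anal canal do, rose in 19 of 22 tested genes (median 6.39), and the groups did not overlap for 16. Krt14, a basal cell keratin, was at 1.03, 0.331, 0.437 and 0.541 CPM in basal colon and 199, 411, 414, 141 and 68.4 CPM in tumors (log2 fold change 8.70, SE 0.71, adjusted p = 3.23e-06). Krt13 and Krt4, keratins of non-cornified squamous epithelium, were at 136, 143, 273, 54.4 and 25 and 12.3, 24.0, 17.9, 8.35 and 5.06 CPM in tumors and below 1 CPM in each basal colon. Trp63 (p63), the factor that defines squamous basal cells, was at 0, 0, 0.0485 and 0.135 CPM in basal colon and 6.89, 7.57, 19.9, 1.10 and 0.0955 CPM in tumors (log2 fold change 6.92, SE 1.56, adjusted p = 0.00262), and tumor 555 lay within the basal range. Krt10, a keratin of cornified layers, had a log2 fold change of -0.58 and Serpinb5 0.57, and neither passed. Pkp1 (plakophilin, a desmosome protein) was expressed in basal colon as well, at 10.9, 23.0, 15.7 and 16 CPM in basal colon and 99.0, 92.0, 96.1, 91.6 and 77.1 CPM in tumors (log2 fold change 2.48, SE 0.19, adjusted p = 2.26e-06).

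Squamous genes also varied among tumors. The DEGs with the widest spread of log2 CPM over the 5 tumors were Krt5, Spink5, Ltf, Psca, Tmprss11b and Tmprss11d, products of squamous or secretory epithelium. Krt5 was at 0.235, 0.441, 0.485 and 0.473 CPM in basal colon and 152, 340.3, 423, 27.3 and 0.573 CPM in tumors (log2 fold change 8.83, SE 1.68, adjusted p = 0.000903), and Krt6a, a keratin of stressed epithelium, was at 0.0939, 0.0551, 0.097 and 0.0676 CPM in basal colon and 144, 209, 326, 28.2 and 3.63 CPM in tumors (log2 fold change 10.76, SE 1.6, adjusted p = 0.000175). Ltf (lactoferrin), an iron-binding protein of neutrophil granules and secretions, was at 0.329, 0.22, 0.437 and 0.676 CPM in basal colon and 518, 752, 1112, 9.76 and 7.87 CPM in tumors (log2 fold change 10.09, SE 1.79, adjusted p = 0.000579). Tumors 534, 541 and 542 were high in all of these, 579 was lower and 555 was lowest, close to basal colon for Krt5. Psca was at 43.0, 52.8, 86.1, 2.99 and 0.239 CPM in tumors and Tmprss11d, an airway-type protease, at 12.2, 20.2, 35.0, 1.10 and 0.143 CPM, in the same order. In limma-voom with quality weights Krt5, Krt6b, Psca, Spink5, Ltf and Ppbp no longer passed, with adjusted p of 0.121, 0.0632, 0.161, 0.151, 0.0512 and 0.0624.

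Neutrophil genes rose in 18 of 19 tested genes (median 5.6), and the groups did not overlap for 18. S100a8, a subunit of the antimicrobial protein calprotectin, was at 0.141, 0.165, 0.146 and 0.203 CPM in basal colon and 48.1, 43.7, 88.8, 24.9 and 17.8 CPM in tumors (log2 fold change 8.03, SE 0.64, adjusted p = 2.64e-06). Trem1, a receptor of activated neutrophils, was at 0.0469, 0.11, 0.0485 and 0 CPM in basal colon and 4.08, 6.80, 6.77, 6.85 and 2.82 CPM in tumors (log2 fold change 6.79, SE 0.56, adjusted p = 3.29e-06), and Cxcr2, the receptor that guides them, was at 3.12, 5.30, 6.0, 3.26 and 1.98 CPM in tumors against 2 basal counts, a log2 ratio of 7.42 (95% exact counting interval 5.57 to 10.47). Padi4, which citrullinates histones in neutrophil traps, rose by 6.97. Tumor 542 had the most S100a8 and 555 the least, and basal colon had next to none. Cd177 did not pass (log2 fold change -0.20, SE 0.14, adjusted p = 0.253), and the primary granule genes Mpo and Elane had too few counts to be tested, as did Camp and Ngp. Ltf, which is also a product of secretory epithelium, is counted among the 18 and ranked the tumors as Krt5 did.

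Inflammatory cytokines and chemokines rose in 20 of 22 tested genes and fell in 1 (median 5.12). Il1b was at 0.235, 0.11, 0.097 and 0.203 CPM in basal colon and 40.0, 49.6, 61.9, 42.0 and 15.8 CPM in tumors (log2 fold change 7.94, SE 0.51, adjusted p = 8.2e-07). Cxcl5, a neutrophil chemokine of epithelial cells, was at 0.141, 0.275, 0.097 and 0.338 CPM in basal colon and 161, 163, 469, 151 and 93.9 CPM in tumors (log2 fold change 9.85, SE 0.68, adjusted p = 1.24e-06), and Cxcl1 was at 0.0469, 0.0551, 0.194 and 0.101 CPM in basal colon and 10.6, 12.6, 28.5, 7.15 and 8.16 CPM in tumors (log2 fold change 7.01, SE 0.62, adjusted p = 5.34e-06). Tumor 542 was the highest for all of these, and all tumors exceeded all basal colons. Il23a, Il11, Tnf and Ccl2 rose by 5.22, 5.21, 4.21 and 3.52, and Il6 was at 0.834, 2.12, 0.982, 0.299 and 0.0955 CPM in tumors against 2 basal counts (log2 ratio 5.20 (95% exact counting interval 3.32 to 8.25)). Ppbp, a platelet and myeloid chemokine, was at 109, 139, 369, 12.7 and 3.01 CPM in tumors. Ccl28, a mucosal chemokine of the colon epithelium, fell by 2.21 on the log2 scale, and Il18, which colonocytes store, had a log2 fold change of -0.66. Il22, Il17f and Il10 had too few counts to be tested.

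Monocyte and macrophage genes rose in 18 of 22 tested genes and fell in 2 (median 2.07). Arg1 (arginase) was at 1.27, 1.82, 0.873 and 0.913 CPM in basal colon and 131, 130.1, 319.6, 83.3 and 40.5 CPM in tumors (log2 fold change 6.88, SE 0.66, adjusted p = 8.69e-06), and Gpnmb, a lysosomal glycoprotein, rose by 3.27. Lyz2 was at 69.8, 49.6, 40.2 and 80.1 CPM in basal colon and 206, 265, 289.6, 233 and 297 CPM in tumors (log2 fold change 2.11, SE 0.21, adjusted p = 1.11e-05), while Adgre1 (F4/80) did not pass (log2 fold change 0.91, SE 0.38, adjusted p = 0.0553). The 2 that fell were Cd163 (-3.17) and Mertk (-3.02), which resident macrophages express. Other genes that such macrophages can express rose, among them Mrc1, C1qa and Cx3cr1 (2.33, 2.26 and 1.09), and Lyve1 (0.88) did not pass. Dendritic cell genes rose in 7 of 14 (median 1.18), and in 10 of 15 without basal 927 (median 1.80). The rises included Ccr7 (log2 fold change 3.36, SE 0.45, adjusted p = 8.13e-05), which guides dendritic cells to lymph nodes, and Ccl22 (3.09). Among markers of conventional dendritic cells Itgax, Sirpa and Batf3 rose (2.48, 1.26 and 1.45). Xcr1, Zbtb46, Flt3, Clec9a, Irf8 and Clec10a did not pass (0.74, -0.25, 0.48, 1.09, 0.05 and 0.93 on the log2 scale), nor did Cd83 (-0.46).

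Mast cell genes rose in 10 of 10 tested genes (median 5.75, or 5.45 with genes at 0 in basal colon set to their bound), and the groups did not overlap for any of them. Mcpt1, a protease of mucosal mast cells, was at 0.188, 0.606, 0.388 and 0.744 CPM in basal colon and 84.9, 53.3, 51.3, 40.9 and 30.2 CPM in tumors (log2 fold change 6.71, SE 0.42, adjusted p = 7.2e-07). Cma1, a chymase, was at 0.0469, 0, 0.146 and 0.0676 CPM in basal colon and 9.08, 8.63, 8.10, 21.5 and 11.2 CPM in tumors (log2 fold change 7.37, SE 0.54, adjusted p = 1.73e-06), and Mcpt2 and Cpa3 rose by 6.40 and 5.64. Tumor 534 had the most Mcpt1 and tumor 579 the most Cma1. Fcer1a, the IgE receptor, was at 0 in all basal libraries and at least 4.98 higher on the log2 scale.

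T cell genes rose in 12 of 18 tested genes and fell in 1 (median 2.37), and the groups did not overlap for 6 of the higher ones. Trbc2, the constant part of the T cell receptor beta chain, was at 0.892, 0.992, 0.825 and 1.25 CPM in basal colon and 5.72, 9.54, 8.21, 6.10 and 6.28 CPM in tumors (log2 fold change 2.84, SE 0.23, adjusted p = 3.21e-06), and Trac rose by 3.23. Cd8b1 rose by 2.89, while Cd4, Cd3e and Cd8a did not pass (adjusted p = 0.051, 0.0922 and 0.0514). Levels were low throughout, under 10 CPM for each of the T cell receptor genes. Cytotoxic lymphocyte genes rose in 5 of 11 tested genes (median 1.45). All tumors lay above all basal colons for 3 of the 11, against 26.7% of all genes tested. Nkg7, Klrd1, Klrk1, Ccl5, Xcl1 and Eomes did not pass. Prf1, Gzmk, Ncr1, Klrb1c and Fasl had too few counts to be tested. Gzmb (granzyme B) was at 0.329, 0.165, 0.388 and 0.271 CPM in basal colon and 3.10, 7.63, 5.57, 0.722 and 2.36 CPM in tumors (log2 fold change 3.72, SE 0.66, adjusted p = 0.000593), and Gzma was at 0.423, 0.661, 0.534 and 0.575 CPM in basal colon and 2.62, 17.3, 7.34, 0.399 and 2.65 CPM in tumors (log2 fold change 3.46, SE 0.91, adjusted p = 0.00662). Tumor 541 was the highest for both and tumor 579 the lowest, below every basal colon for Gzma, which did not pass in limma-voom (adjusted p = 0.0543).

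Checkpoint and regulatory T cell genes rose in 14 of 17 (median 2.21). Tnfrsf9 (4-1BB), a costimulatory receptor of activated T cells, was at 0.0469, 0.0551, 0.146 and 0.271 CPM in basal colon and 5.22, 9.48, 8.54, 5.18 and 3.25 CPM in tumors (log2 fold change 5.45, SE 0.51, adjusted p = 7.59e-06). Pdcd1 (PD-1), its ligands Cd274 and Pdcd1lg2, and Ctla4 rose by 3.62, 1.58, 3.81 and 3.77. Foxp3, the factor of regulatory T cells, was at 0.235, 0.11, 0 and 0.0338 CPM in basal colon and 0.596, 0.589, 1.01, 0.199 and 0.716 CPM in tumors (log2 fold change 2.72, SE 0.69, adjusted p = 0.0055). Foxp3 was near the limit of detection in basal colon, and tumor 579 lay within the basal range.

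B cell genes were called higher in all 14 genes (median 2.79), but the groups did not overlap for 1 only, Cxcl13. Ms4a1 (CD20) was at 0.282, 0.22, 0.146 and 0.406 CPM in basal colon and 2.62, 0.648, 1.45, 0.324 and 5.82 CPM in tumors (log2 fold change 2.99, SE 0.83, adjusted p = 0.00878). Tumor 555 was the highest, and tumor 579 lay within the basal range. Without tumor 534, 542 or 555 the count was 7 of 9 tested genes, and without tumor 541 it was 9 of 9. Of 13 plasma cell and immunoglobulin constant genes tested, 5 rose and 1 fell, and 5 became 8 without basal 927 or tumor 579 and 3 without tumor 542. Ighg2c was at 0.188, 0.165, 0.146 and 0.338 CPM in basal colon and 22.4, 42.2, 60.8, 5.33 and 59.3 CPM in tumors (log2 fold change 7.40, SE 0.84, adjusted p = 2.61e-05) and Ighg2b rose by 5.12, while Igha, the main class of the gut, had a log2 fold change of 0.95 and did not pass. Reads of immunoglobulin constant genes may be shared between near-identical copies.

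MHC class II genes, which present antigen to helper T cells, rose in 9 of 10 (median 2.62). Cd74, the invariant chain, was at 90.3, 61.6, 53.7 and 130.3 CPM in basal colon and 732, 1685, 878, 205 and 650.0 CPM in tumors (log2 fold change 3.30, SE 0.54, adjusted p = 0.000309), and H2-Aa was at 44.0, 25.1, 27.2 and 60.3 CPM in basal colon and 270.4, 334, 285, 77.7 and 284 CPM in tumors (log2 fold change 2.67, SE 0.42, adjusted p = 0.000243). Tumor 579 was the lowest by a wide margin in both, though still above basal colon. Genes induced by IFN-gamma rose in 21 of 23 (median 3.46). Tgtp1, a GTPase, was at 2.68, 1.49, 1.79 and 2.91 CPM in basal colon and 215, 511, 176, 14.7 and 32.8 CPM in tumors (log2 fold change 6.40, SE 1.05, adjusted p = 0.000336), Gbp2, a guanylate binding protein, was at 17.8, 15.1, 17.8 and 23.9 CPM in basal colon and 367, 722, 366, 51.1 and 139.9 CPM in tumors (log2 fold change 4.14, SE 0.66, adjusted p = 0.000292), and Cxcl9, a T cell chemokine, was at 0.986, 0.551, 0.291 and 0.575 CPM in basal colon and 64.5, 197, 58.0, 4.36 and 14.9 CPM in tumors (log2 fold change 6.80, SE 1.16, adjusted p = 0.000435). The order of tumors was the same at both ends in these genes, with 541 highest and 579 lowest. Irf1 and H2-K1 did not pass (0.19 and 0.85 on the log2 scale).

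Type I IFN-stimulated genes rose in 18 of 26 (median 2.10). Usp18, which restrains the receptor, was at 2.25, 1.93, 0.582 and 2.60 CPM in basal colon and 22.8, 107, 45.1, 15.7 and 12.8 CPM in tumors (log2 fold change 4.44, SE 0.74, adjusted p = 0.00036), Ifit2 was at 9.72, 6.17, 6.74 and 9.0 CPM in basal colon and 72.3, 279.6, 119.8, 21.6 and 36.6 CPM in tumors (log2 fold change 3.74, SE 0.70, adjusted p = 0.000807), and Isg15, a ubiquitin-like protein, was at 8.45, 7.93, 5.58 and 9.74 CPM in basal colon and 36.7, 193, 74.7, 12.6 and 17.3 CPM in tumors (log2 fold change 3.07, SE 0.76, adjusted p = 0.00455). Tumor 541 again stood highest, and tumors 579 and 555 were just above basal colon for Isg15. Irf7 and Ifih1, which sense and relay viral RNA signals, had log2 fold changes of -0.49 and 0.20 and did not pass. Ifit and Gbp genes have close paralogs, so their counts may be partly shared.

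Matrix proteases and their inhibitors rose in 19 of 22 (median 2.72), and the groups did not overlap for 18. Mmp10 (stromelysin 2) was at 0.657, 0.331, 0.776 and 0.947 CPM in basal colon and 156, 294, 160.4, 235 and 48.0 CPM in tumors (log2 fold change 7.99, SE 0.60, adjusted p = 1.98e-06), Mmp13, a collagenase, was at 2.16, 1.21, 1.02 and 1.59 CPM in basal colon and 288, 449.9, 229, 255 and 61.7 CPM in tumors (log2 fold change 7.41, SE 0.60, adjusted p = 2.96e-06), and Mmp12, the macrophage elastase, rose by 6.42. Tumor 555 was the lowest for all of these and still far above basal colon. Timp1, an inhibitor, rose by 3.02, while Timp2 and Timp3 had log2 fold changes of 0.03 and 0.42. Fibroblast and matrix genes rose in 9 of 24 and fell in 2 (median 0.87), and 15 rose without basal 927. Inhba, a subunit of activin, was at 0.939, 0.881, 0.776 and 1.69 CPM in basal colon and 23.7, 25.1, 25.1, 60.2 and 10.6 CPM in tumors (log2 fold change 4.71, SE 0.52, adjusted p = 2.11e-05), and Lox, which crosslinks collagen, rose by 3.02. Structural genes moved less, with log2 fold changes of 1.11 for Col1a1, 0.99 for Col3a1 and 0.63 for Fn1, of which Col1a1 passed.

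Of 14 genes of epithelial-mesenchymal transition and laminin-332, 7 rose and 3 fell. The laminin chain Lama3 rose (2.17), as did Vim (1.76), and the factors went in both directions, with Snai1, Snai2 and Twist2 higher (1.16, 1.13 and 2.09) and Zeb1 and Twist1 lower (-2.25 and -1.39). Cdh1 (E-cadherin) had a log2 fold change of 0.37, and Cdh2 (N-cadherin) fell by 3.62. Endothelial genes rose in 7 of 14 (median 0.91). Angpt2, made by sprouting vessels, was at 2.21, 1.05, 1.41 and 1.72 CPM in basal colon and 17.3, 16.3, 12.9, 19.5 and 9.69 CPM in tumors (log2 fold change 3.23, SE 0.27, adjusted p = 3.64e-06). Of the general endothelial markers Cdh5, Vwf and Tie1 rose (1.16, 1.02 and 1.30), while Pecam1 and Kdr had log2 fold changes of 0.63 and 0.25 and did not pass. Tek, Flt1, Eng, Plvap and Emcn did not pass either (-0.32, 0.60, 0.62, 0.22 and 0.80).

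Claudins and junction genes rose in 2 of 15 and fell in 3, against 15.4% and 17.7% of all genes tested. Cldn1 and Cldn4 rose (3.79 and 2.22), Cldn15, a pore-forming claudin, was at 184, 229.7, 203 and 168 CPM in basal colon and 10.3, 6.80, 13.3, 8.67 and 20.9 CPM in tumors (log2 fold change -4.03, SE 0.30, adjusted p = 1.72e-06), and Tjp1 (ZO-1) and Ocln had log2 fold changes of 0.24 and -0.75. Of 15 prostaglandin genes, 3 rose and 5 fell. Ptgs2 (COX-2) was at 6.85, 3.75, 5.97 and 8.18 CPM in basal colon and 25.6, 23.3, 20.3, 24.9 and 13.2 CPM in tumors (log2 fold change 1.79, SE 0.25, adjusted p = 0.00011), and the E2 synthase Ptges rose by 2.41. The degrading enzyme Hpgd and the uptake carrier Slco2a1 fell by 2.77 and 2.06 on the log2 scale, and the receptor Ptger3 by 2.73.

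Genes of the layers that surround the epithelium were far lower in the tumor samples, labelled as tumor only, than in basal whole colon. Smooth muscle genes fell in 15 of 15 (median -4.83), with no overlap between groups. Myh11, the smooth muscle myosin, was at 3052, 1706, 3372 and 3256 CPM in basal colon and 20.1, 17.1, 15.9, 48.1 and 144 CPM in tumors (log2 fold change -5.86, SE 0.72, adjusted p = 4.71e-05), and Acta2 was at 2190.2, 1278, 2066 and 2419 CPM in basal colon and 97.2, 95.5, 79.1, 156 and 229 CPM in tumors (log2 fold change -3.92, SE 0.34, adjusted p = 4.23e-06). Tumor 555 held the most muscle message and basal 918 the least of the basal colons. Enteric neuron, glia and pacemaker cell genes fell in 18 of 21 and rose in 2 (median -3.80), and Gfap, of glia, was at 14.8, 6.67, 11.5 and 12.3 CPM in basal colon and 0.0953, 0, 0.0819, 0.199 and 0.382 CPM in tumors (log2 fold change -6.14, SE 0.54, adjusted p = 5.18e-06). Adipocyte and mesothelial genes fell in all 9 that could be tested (median -6.53). Of 13 skeletal muscle genes, 6 could be tested, 1 rose (Tnni2, 1.92) and 1 fell (Ckm, -6.77), against 15.4% and 17.7% of all genes tested. Whether the lower level of these genes lowered or raised the share of counts left to other genes was not tested.

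Of 12 DNase and DNA sensing genes tested, 3 rose and 2 fell, against 15.4% and 17.7% of all genes tested. Sting1, the adaptor of cytosolic DNA sensing, was at 5.02, 4.46, 3.74 and 7.31 CPM in basal colon and 128, 142, 123, 139 and 89.9 CPM in tumors (log2 fold change 4.59, SE 0.23, adjusted p = 1.91e-07), Ifi204, a DNA sensor of myeloid cells, rose by 3.88, and Cgas had a log2 fold change of 0.47. Dnase1l3, the secreted DNase that the study deleted in its other strain (chr14:7964533-7994573, minus strand), was at 3.29, 2.59, 1.94 and 3.89 CPM in basal colon and 5.6, 2.0, 9.80, 4.56 and 9.86 CPM in tumors (log2 fold change 1.11, SE 0.42, adjusted p = 0.0399). Its groups overlapped, since tumor 541 was among the lowest of all 9 libraries, and its call was lost when basal 851, 918 or 920 or tumor 534, 542 or 555 was left out (adjusted p = 0.0713, 0.089, 0.107, 0.0514, 0.0903 and 0.0861). Dnase1 and Dnase1l2 fell by 1.31 and 2.01 on the log2 scale.

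Of 17 circadian clock genes, 3 rose (5 without basal 920) and 5 fell, against 15.4% and 17.7% of all genes tested. Arntl (BMAL1), which drives the clock, was at 37.8, 36.0, 30.7 and 35.9 CPM in basal colon and 5.79, 5.45, 7.97, 7.35 and 7.49 CPM in tumors (log2 fold change -2.37, SE 0.14, adjusted p = 4.47e-07), Npas2 and Cry1 fell by 1.25 and 1.30, and Clock, Per2 and Dbp had log2 fold changes of 0.12, 0.46 and 0.42. The hour of sampling is not given in the sources used here. Immediate early and stress genes rose in 4 of 12 and fell in 2, and the 4 became 1 without basal 851 or 927 and 2 without basal 918 or tumor 542. Ier3 was at 7.75, 8.15, 13.2 and 9.88 CPM in basal colon and 86.8, 55.8, 91.2, 91.4 and 56.0 CPM in tumors (log2 fold change 2.96, SE 0.23, adjusted p = 2.36e-06), and the heat shock gene Hspa1a fell by 1.39, while Fos had a log2 fold change of -0.24. Of 4 sex-linked genes tested, Kdm5d was called lower (-1.0, at the fold threshold), Ddx3y, Uty and Eif2s3y were not called, and Xist was at or below 0.0939 CPM in all 9 libraries.

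**Figure D3:**
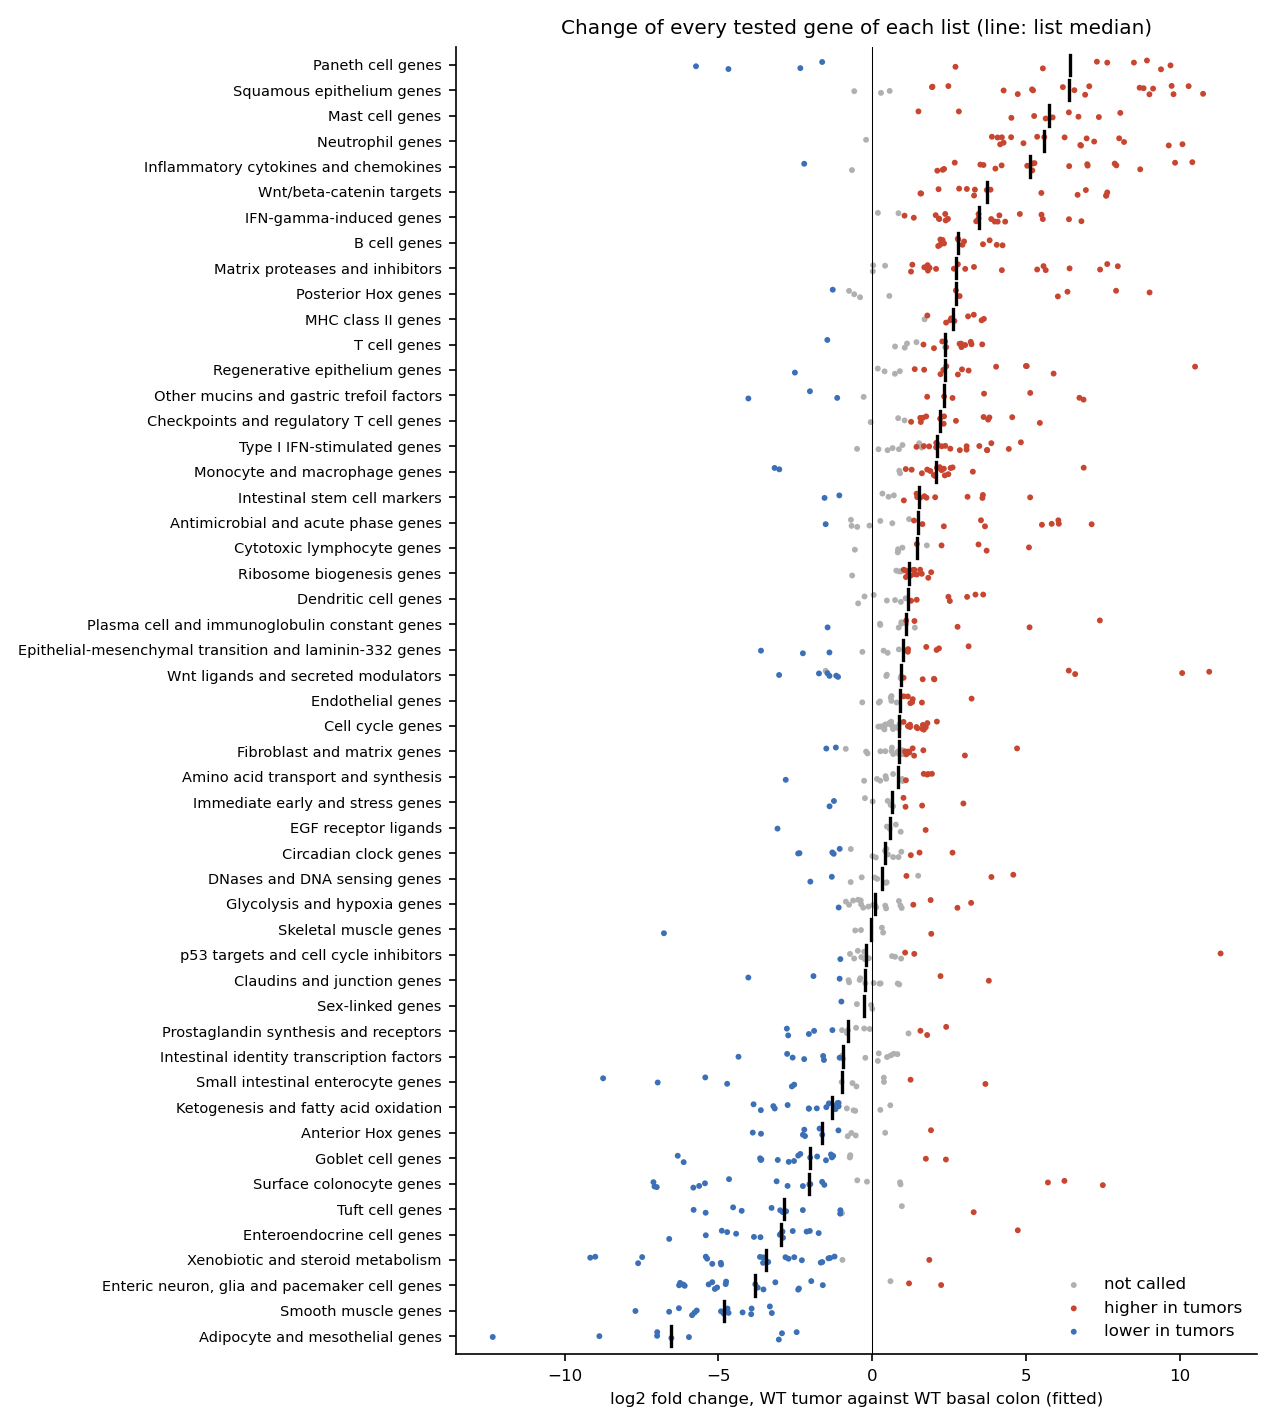
Fitted log2 fold change of WT tumor against WT basal colon (horizontal axis) for every tested gene of 51 lists (rows, ordered by their median, drawn as a black line), with genes called higher in red, lower in blue and not called in gray. Paneth, squamous, mast cell and neutrophil lists lie at the top, with medians of 6.43, 6.39, 5.75 and 5.6, and smooth muscle and adipocyte lists at the bottom, with -4.83 and -6.53.

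The 5 tumors were alike in some programs and not in others. Mean log2 CPM of the Wnt target list was 6.43, 6.55, 6.58, 6.94 and 6.64 in tumors against 2.17, 2.17, 2.12 and 2.21 in basal colon, and that of the stem cell list was 5.55, 5.45, 5.44, 5.58 and 5.20 against 3.81, 3.82, 3.84 and 3.97. Tumors thus lay within a narrow band for both. Mean log2 CPM of the IFN-gamma list was 6.64, 7.67, 6.67, 4.14 and 5.23 in tumors against 3.31, 3.0, 3.02 and 3.46 in basal colon, and that of the squamous list was 2.82, 3.46, 3.71, 2.51 and 0.53 against -1.91, -1.95, -1.94 and -1.76. Tumor 541 was the highest for IFN-gamma genes and tumor 579 the lowest, while for squamous genes tumor 542 was the highest and 555 the lowest. The B cell list was at 0.83, -0.64, 0.63, -1.83 and 2.15 in tumors, with 555 highest, and the smooth muscle list at 2.62, 2.67, 2.61, 3.59 and 4.45, with 555 highest again. For cell cycle genes the means were 5.94, 5.71, 5.23, 5.34 and 5.20, with tumor 534 highest. These orders are a description of 5 mice, and no group was formed from them.

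**Figure D4:**
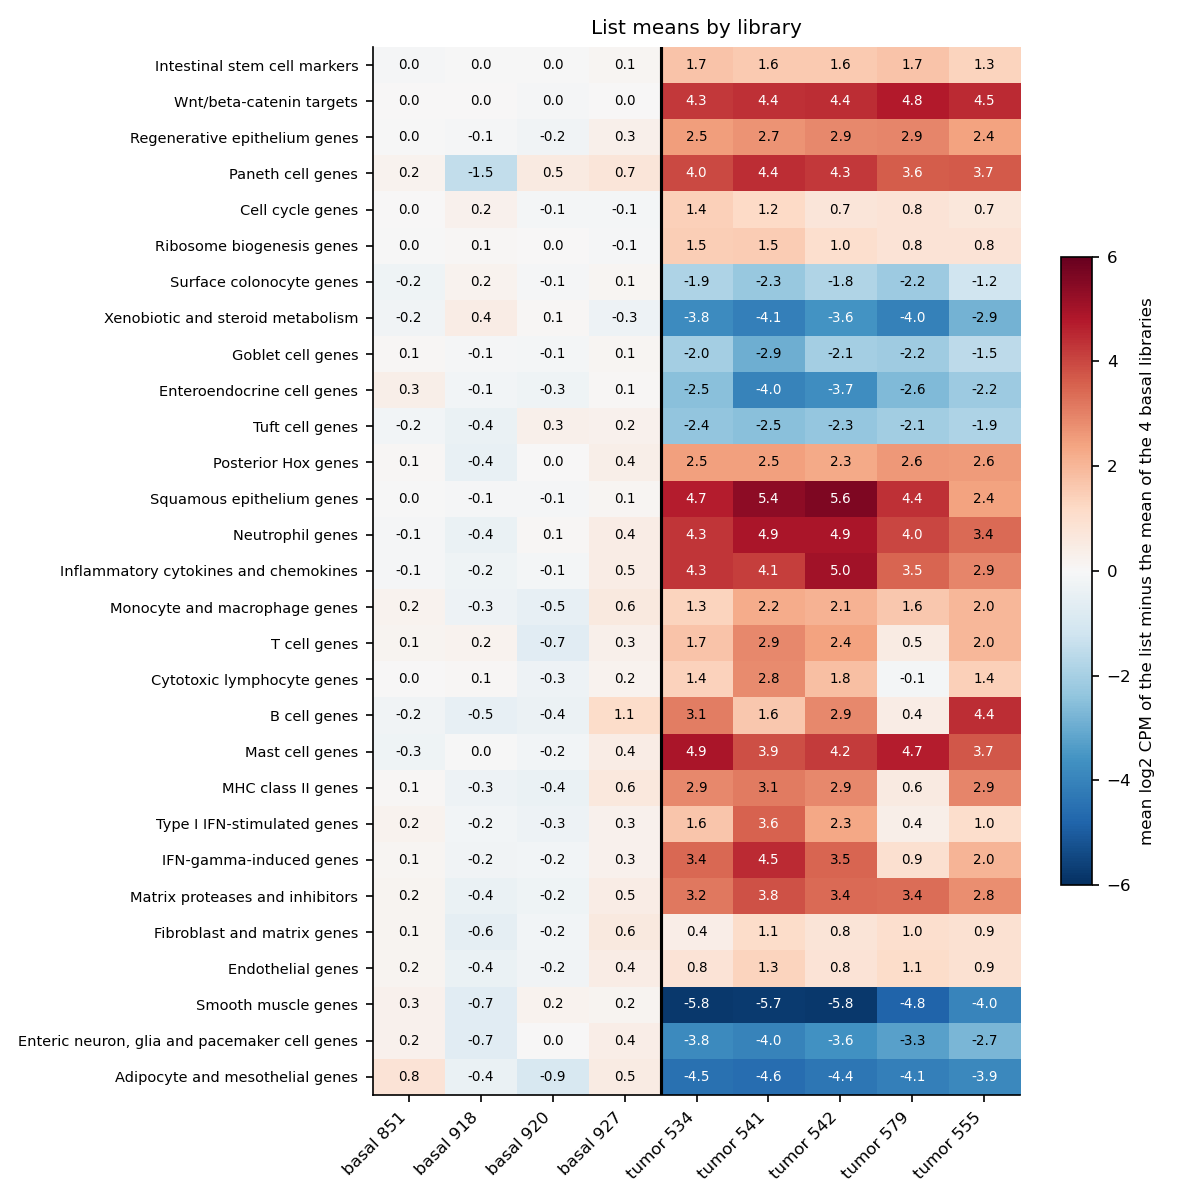
Mean log2 CPM of 29 gene lists in each library minus the mean of the 4 WT basal libraries, for basal colon (left of the line) and tumors (right), in red where higher and blue where lower. Wnt target and smooth muscle lists are shifted in all 5 tumors, whereas IFN, MHC class II and B cell lists are least shifted in tumor 579 and squamous genes least in tumor 555.

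Tumors of Dnase1l3-KO mice gave an independent set of libraries for the same contrast, with 3 tumors and 4 basal colons. Dnase1l3 does not check these labels, since its level was 5.01, 2.87, 3.27 and 1.56 CPM in KO basal colon and 3.17, 3.54 and 7.83 CPM in KO tumors, overlapping the WT libraries. The study itself reported a strong reduction of Dnase1l3 expression along the whole intestine of its KO strain. Why the gene counts overlap here was not tested. CPM in KO and D80 libraries use the TMM factors of their own comparison. In KO mice 5834 of 19125 genes were DEGs (30.5%), of which 2804 (14.7% of those tested) rose and 3030 (15.8%) fell. KO tumor 544 stood apart, with 8.02% mitochondrial and 11.2% ribosomal protein counts, against 3.33% to 3.35% and 5.81% to 5.98% in the other KO tumors, and without it 3042 rose and 3247 fell. Of the genes called higher in WT, 2279 were called higher in KO (77.3% of the WT and 81.3% of the KO calls), and of those called lower, 2645 were called lower in KO (78.4% of the WT and 87.3% of the KO calls). A single gene, 2310079G19Rik, was called in opposite directions, higher in WT and lower in KO, and was at 8.74, 1.73, 8.97 and 0.0559 CPM in KO basal colon and 0.17, 0.375 and 0.164 CPM in KO tumors against 0.0469, 0, 0 and 0 CPM in basal colon and 0.262, 0.383, 0.437, 1.02 and 0.382 CPM in tumors of WT mice. In KO, 15 of 15 Wnt targets rose (median 3.70), 11 of 17 stem cell markers rose (median 1.83), 15 of 21 surface colonocyte genes fell (median -2.48) and 23 of 24 xenobiotic genes fell (median -3.61). Paneth genes rose in 8 of 12, squamous genes in 18 of 21 and neutrophil genes in 17 of 19. Type I IFN-stimulated genes rose in 9 of 26 (median 0.56) and B cell genes in 4 of 11 tested genes (median 1.05), against 18 of 26 and 14 of 14 in WT.

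A test of the difference between the WT and KO changes (the interaction of genotype with tissue, over 16 libraries) called 0 of 20379 genes in edgeR, where 617 had an unadjusted p under 0.05 and the lowest adjusted p was 0.974. DESeq2 called 2, 2310079G19Rik and Slc37a2. Leaving out KO basal 872 gave 5 in edgeR: Slc37a2, 2310079G19Rik, Atp12a, Gm11535 and Slc20a1. Slc37a2, a sugar phosphate transporter, was at 147, 37.4, 122 and 1.79 CPM in KO basal colon and at 3.85, 5.01 and 2.99 CPM in KO tumors, and at 3.15, 2.26, 2.72 and 3.86 CPM in basal colon and 6.44, 4.21, 2.84, 5.58 and 9.09 CPM in tumors of WT mice. The difference lay in the basal colons of mice 852, 853 and 915, while mouse 872 resembled WT. By this test, the smaller counts of IFN-stimulated and B cell genes in KO are therefore not shown to differ from those in WT. The study compared KO with WT tumors directly, without adjustment for multiple comparisons. It reported several type I IFN response genes and Cd8a as lower in KO tumors. That direct contrast is not the interaction and was not tested here.

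**Figure D5:**
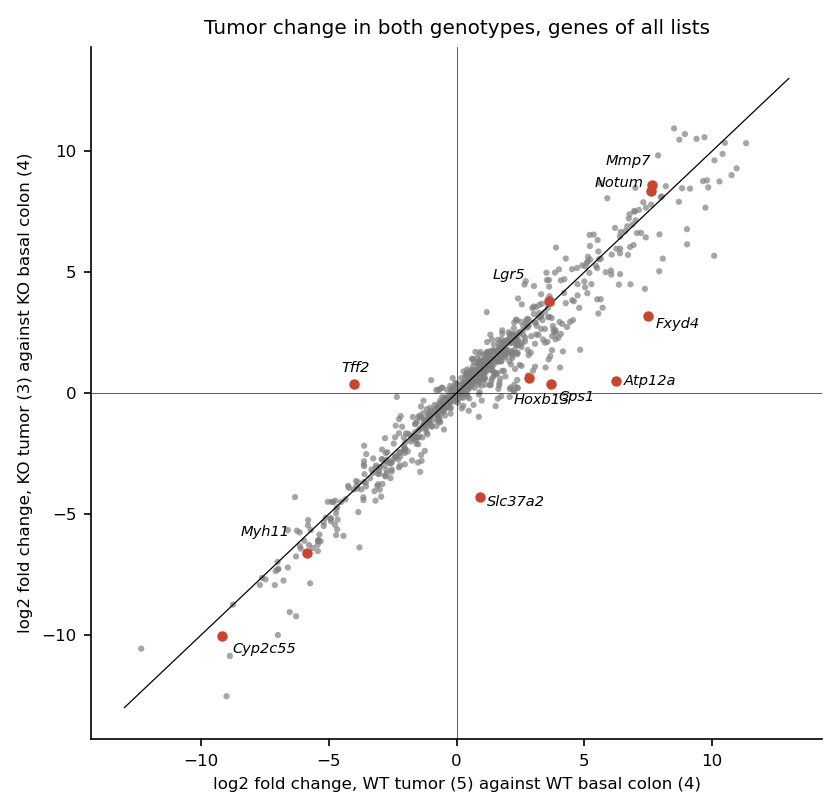
Fitted log2 fold change of tumor against basal colon in WT (5 against 4 libraries, horizontal axis) and in KO mice (3 against 4, vertical axis) for genes of all lists tested in both, with 11 genes named in red and a line where the changes are equal. Most genes lie along the line, and Atp12a (6.25 in WT, 0.52 in KO), Fxyd4, Slc37a2 and Tff2 lie off it.

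Colon of WT mice at D80, after the same 3 cycles of AOM/DSS, was whole tissue from mice 581, 541, 542 and 555, of which 541, 542 and 555 also gave tumors. Its comparison with basal colon shares the 4 basal libraries with the tumor comparison, so values are set side by side only. At D80, 1303 genes (7.07% of 18419) rose and 599 (3.25%) fell. Library 581 stood apart, with 15.1% mitochondrial counts, and without it 2029 rose and 1153 fell. Wnt targets rose in 5 of 15 (median 1.13, against 3.73 in tumors), and surface colonocyte genes fell in 2 of 21 (median -0.15, against -2.04). Lgr5 was at 1.73, 6.32, 22.0 and 4.44 CPM and Mmp7 at 8.14, 39.6, 141 and 10.9 CPM in D80 colon, highest in mouse 542 for both. Cdx2 was at 38.6, 81.7, 99.6 and 90.8 CPM and Cyp2c55 at 479, 182, 148 and 278 CPM, between the tumors and basal colon. Squamous genes rose in 3 of 10 tested genes, and Krt5 was at 0.324, 0.329, 0.41 and 0.113 CPM, as low as in basal colon. Lymphoid and myeloid lists also rose at D80. B cell genes rose in 14 of 14 (median 4.71, against 2.79), plasma cell and immunoglobulin genes in 13 of 15 (median 4.14, against 1.11), macrophage genes in 18 of 22 (median 2.83, against 2.07) and dendritic cell genes in 13 of 16 (median 2.72, against 1.18). Hoxb13 was at 176, 105, 65.5 and 139 CPM and Atp12a at 73.8, 114, 73.5 and 268 CPM in D80 colon, where Hoxb13 in mouse 542 was close to the highest WT basal colon. Differences between D80 colon and tumors were not tested.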

How the data were processed

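Bulk RNA-Seq of 32 libraries was deposited as a table of raw counts per gene, made by the authors from single-end reads of 75 nt (TruSeq RNA libraries, NextSeq) with FastQC 0.11.5, STAR alignment to mm10 and Subread counting on GENCODE M25, per the labels and the submitters' processing notes. The strand setting is not given in the sources used here, so reads of overlapping antisense genes cannot be told apart. Samples were grouped by their labels, and the number in each title was read as that of a mouse, which the labels do not state, so p values measure the spread between these samples. In all, 0 columns belonged to other samples. Positions are from GENCODE M21 on GRCm38, which is mm10, for 18663 of 19101 tested genes.

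Counts were fitted with edgeR 4.0.16 in R 4.3.3 (TMM, filterByExpr, quasi-likelihood test) on the libraries of each comparison, and the Benjamini-Hochberg adjustment ran over all genes tested. Each SE was taken as the absolute log2 fold change divided by sqrt(F). A fold against a group at 0 is a bound with a floor of 3 counts over the group, and 1 to 3 counts give a log2 ratio with its 95% exact interval, which covers counting error only. List means average log2 CPM (prior count 1). The study used DESeq2, which is an alternative here (version 1.42.0), with limma 3.58.1 voom, RLE factors, other filters, all libraries in a single fit and omission of each library. On simulated data with 18819 genes edgeR recovered 74.7% of the 99 genes with a simulated log2 difference of 1.5 and 99.0% of the 97 with 3, with 5 false calls. No other gene differed in the simulation, whereas 33.1% of tested genes were called in WT tumors. Its error rates therefore do not carry over to a contrast where so many genes differ.

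The comparison, the 51 gene lists and the colon epithelium markers were chosen with earlier results of these data known, and no set test was run. Genes are named by a rule: up to 10 of the greatest rises and falls among DEGs with groups that do not overlap and a mean of at least 5 CPM (immunoglobulin segments, pseudogenes and predicted genes left out), up to 4 members of each list with the smallest p, the markers Dnase1l3, Lgr5, Sst and Muc2, and the 6 DEGs with the widest spread over tumors. Other members were named for their role after their values were seen, and some genes that the rule picks are not reported here.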

Additional observations from a re-analysis of the deposited data

Results flagged for a closer look

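In 100 group means of gene lists (mean log2 CPM over the genes of a list), 7 had a library whose gap to its neighbor exceeded Dixon's 95% limit for 4 or 5 samples, and chance flags about 1 in 20. In basal colon, 918 was high for amino acid genes (5.21, others 5.05 to 5.07) and low for smooth muscle genes (7.75, others 8.59 to 8.66). Basal 920 was low for T cell genes (-1.94, others -1.09 to -0.919), and basal 927 was high for B cell genes (-1.16, others -2.76 to -2.49). Among tumors, 541 was low for small intestinal enterocyte genes (-1.11, others -0.678 to -0.549) and 534 was low for genes of epithelial-mesenchymal transition and laminin-332 (4.11, others 4.48 to 4.62). Tumor 579 was low for MHC class II genes (2.96, others 5.27 to 5.51), of which 9 of 10 rose, and 10 of 10 without it.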

How the results depend on the processing

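No paired analysis was possible because no mouse number of a WT tumor was shared with a WT basal colon. The 2948 DEGs higher and 3373 lower in WT tumors were 2958 and 3356 with DESeq2, 1770 and 2198 when every library needed 10 counts (15411 genes tested, since a gene under that in any library is dropped), and 3717 and 4225 with no filter. Without each library in turn they were 2691 to 3078 higher and 3222 to 3514 lower. A single fit of all 32 libraries gave 3921 and 3423 and moved the median log2 fold change of all genes from 0.02 to 0.16. The other settings (RLE factors, TMM without immunoglobulin genes, the edgeR 4 quasi-likelihood fit and voom with quality weights) gave 2863 to 2973 higher and 3352 to 3456 lower.

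In KO mice, the 2804 higher and 3030 lower were 2765 and 3169 with DESeq2, and without each library 2598 to 3042 and 2698 to 3247. For WT D80 colon, the 1303 higher and 599 lower were 1544 and 858 with DESeq2. Without each library they were 931 to 2029 and 354 to 1153, the highest without D80 colon 581 (2029 and 1153). The lower count was 354 without basal 920, 359 without D80 colon 541 and 374 without D80 colon 542. The interaction, with 0 DEGs in edgeR and 617 genes at an unadjusted p under 0.05, had 2 in DESeq2 and 0 to 5 without each library, the 5 without KO basal 872.

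Of 3678 values of named genes under other settings, 3627 kept direction and call, 29 lost the call, 12 gained it and 10 changed sign. Those 10 were of Y-linked genes with no call. The log2 fold change of Uty was 0.017 with no filter, 0.0012 with voom, 0.12 with all libraries, and -0.136 to 0.0816 without each library. That of Eif2s3y was -0.0768 to 0.0871 without each library. Of 867 list medians 796 moved by at most the SD of the list mean over tumors and 67 by more, among them that of Paneth genes, from 6.43 to 0.54 with 10 counts in every library. The other 4 changed sign: Wnt ligands (-0.32) and posterior Hox genes (-0.49) with 10 counts in every library, and skeletal muscle genes without basal 920 (0.09) or 927 (0.10). The causes of these changes were not tested. Depth limits genes at under 3 counts in a group, for which no fitted fold is a bound.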
